A study of Homo sapiens with 18 samples.

Results

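Aminoacyl-tRNA synthetases are the enzymes that load each tRNA with its amino acid, and they supply every ribosome with charged tRNA. Human cells carry separate sets for the cytosol and for the mitochondrion, most of them from separate nuclear genes, and glycyl-tRNA synthetase (GARS1) and lysyl-tRNA synthetase (KARS1) serve both compartments from 1 gene each. In the cytosol several of the enzymes are held in a multisynthetase complex by scaffold proteins, among them AIMP1 and AIMP2, and many cytosolic synthetase genes are known targets of ATF4, the transcription factor of the amino acid response.

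The genes described here were 38 listed members, found by symbol among the 60683 gene rows of each of 2 count tables. Of these, 18 encode cytosolic enzymes or subunits, 16 encode mitochondrial enzymes, 2 serve both compartments and 2 are scaffold genes. All 38 were present in both tables, and all 38 passed the filter on low counts.

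Poly(A)-selected RNA had been sequenced from HCT-116 cells, an established human colorectal carcinoma line. The study asked how methylation of actin bears on expression, with 3 libraries in each of 6 groups. In the first table, ACTB-mut and ACTB-WT are Actin KO cells labelled as over-expressing mutant actin (H73A in the design text) and wild-type actin, and the Actin KO group is the same background with an empty construct. The actin knockout is therefore shared by all 3 groups of that table. In the second table, SETD3 KO2 and SETD3 KO1 are 2 lines labelled as knockouts of SETD3, the methyltransferase of that actin histidine, and SETD3 CT is their control. KO2 replicate 3 carries the cell line label HCT-117 and was kept in its group. The labels do not say whether replicates were separate cultures or how the knockout lines were cloned, and each p-value reflects only how far these samples differ among themselves, which may be technical.

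Library totals ran between 5144386 and 11271910 counts in the ACTB table and between 3389586 and 11652967 counts in the SETD3 table. The members together took 0.295% to 0.322% of the counts of an ACTB-table library and 0.297% to 0.338% of a SETD3-table library. ACTB RNA averaged 40.7 CPM (TMM-scaled counts per 1e+06) in ACTB-mut, 27.8 CPM in ACTB-WT and 18.9 CPM in Actin KO libraries, against 972 to 1361 CPM in the means of the SETD3-table groups, which were normalised separately. SETD3 RNA averaged 21.9 CPM in KO2, 10.1 CPM in KO1 and 21.8 CPM in CT libraries. ACTB RNA was thus low in every ACTB-table group, including the groups labelled as over-expressing actin. RNA of ACTG1, the other cytoplasmic actin gene, was abundant there, at means of 6452 CPM in ACTB-mut, 8076 CPM in ACTB-WT and 7356 CPM in Actin KO. Its means in the SETD3-table groups were 2996 to 3975 CPM. SETD3 RNA averaged lower than CT in KO1, with overlapping libraries, and not in KO2. Groups are called by their labels throughout. Of the epithelial markers, 7 of 7 were present in every group with sums of 8169 to 13658 CPM, and the fibroblast, blood and neural lists each summed to 15.3 CPM or less in every library.

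ATF4 binds composite sites that join a CEBP part and an ATF part, and the letters TGATGNAA were searched for on both strands of the 250 bases before each gene's start. Starts were those of RefSeq, and by the GENCODE 29 bounds used elsewhere the windows of IARS1 and GARS1 lie inside the gene. Of the 32 members with an entry in the RefSeq promoter table (GRCh38.p14), 4 held a match, which is 12.5%, against 1104 of 35116 promoters (3.14%). The windows below hold those 4 matches, and are shown because they are the only stretches with these letters among the members searched. Each is given 5′ to 3′ along the gene's strand, with the match in capitals.
AARS1, chr16:70289675-70289704, minus strand: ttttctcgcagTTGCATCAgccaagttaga
IARS1, chr9:92293698-92293727, minus strand: cccgcattttcagcgcgTTGCATCAcctcc
GARS1, chr7:30594834-30594863, plus strand: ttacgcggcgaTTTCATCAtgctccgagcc
YARS2, chr12:32756076-32756105, minus strand: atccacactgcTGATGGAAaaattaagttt
In AARS1, IARS1 and GARS1, which charge alanine, isoleucine and glycine, the match lay on the opposite strand to the gene. In YARS2, the mitochondrial tyrosine enzyme, it lay on the gene's own strand. A match is a description of letters and not a measured site. LARS1, TARS3, VARS1, YARS1, AARS2 and VARS2 were not searched.

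Levels of different genes were compared per kilobase of transcript, using the median length of each gene's principal transcripts. The cytosolic enzymes stood well above the mitochondrial ones: the median cytosolic gene had 25.7 to 35.6 CPM per kb across the 6 groups, and the median mitochondrial gene had 4.05 to 5.44 CPM per kb. FARSA, the alpha subunit of cytosolic phenylalanyl-tRNA synthetase, was highest in all 6 groups, with group means between 160 CPM per kb in ACTB-mut and 216 CPM per kb in SETD3 KO2. Its partner FARSB, the beta subunit, was far lower, although the enzyme holds both subunits in equal number. The level ratio of FARSA to FARSB was 4.85 to 8.38. Transcript GC content was 61.4% for FARSA and 41.6% for FARSB, and its part in the levels was not tested. KARS1, QARS1 (glutamine), AIMP2, VARS1 (valine), YARS1 (tyrosine), SARS1 (serine) and MARS1 (methionine) followed, each with 55.4 CPM per kb or more in every group.

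At the other end, AIMP1, TARS3 (a second cytosolic threonine enzyme) and the mitochondrial MARS2 and NARS2 were among the 7 lowest members in all 6 groups. PARS2, RARS2, WARS2, IARS2, AARS2 and EPRS1 joined them in some groups and not in others. AIMP1 had group means of 1.13 to 2.94 CPM per kb and was the lowest of the 9 listed genes of the multisynthetase complex in every group. The highest of the 9 was KARS1 or AIMP2, depending on the group. AIMP1 also had the lowest transcript GC content of all members, at 38.8%. The other complex genes below 45% GC, EPRS1, IARS1, LARS1 and RARS1, lay below KARS1, AIMP2, QARS1 and MARS1 in every group. The part of base composition in this order was not tested. Most neighbours in the order of levels could not be separated: of 37 neighbouring pairs, the ranges over 3 libraries overlapped in 33 to 35 pairs per group.

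**Figure D1:**
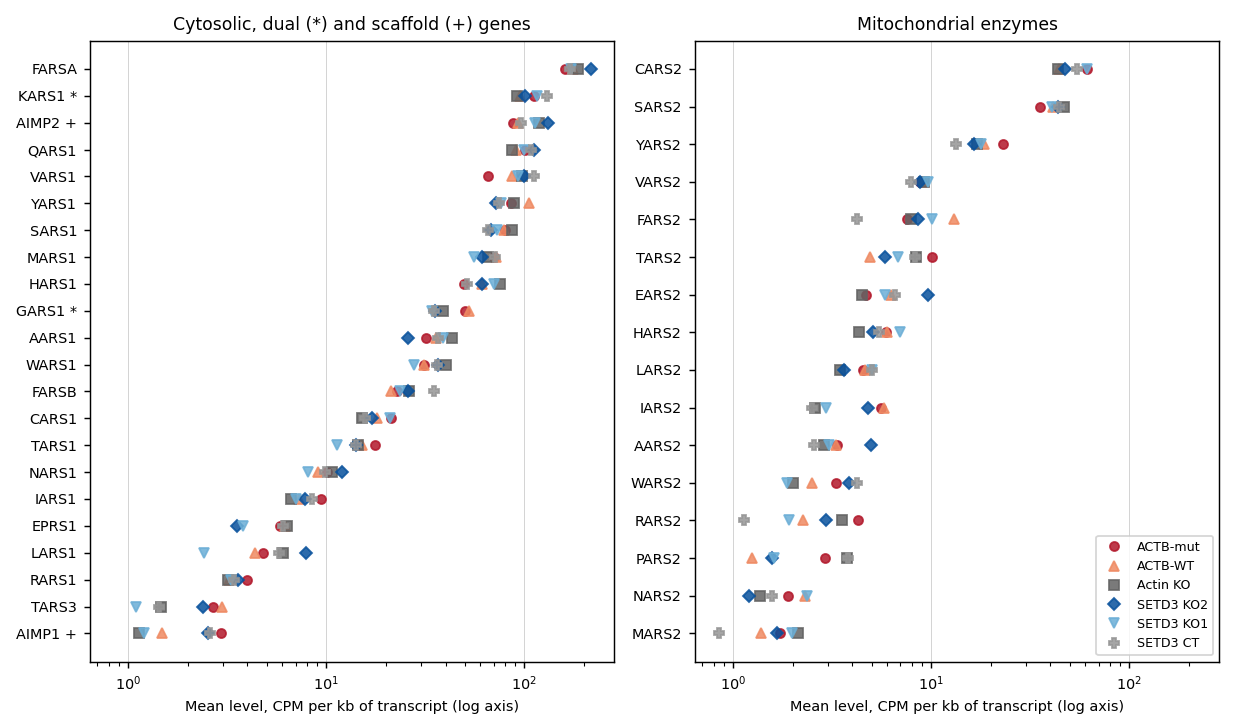
Mean level of each member in the 6 groups, in CPM per kb of transcript on a log axis, with 1 symbol per group (n = 3 libraries each). FARSA is highest of all members in every group, and CARS2 and SARS2 stand apart from the other mitochondrial enzymes.

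For 15 amino acids, 1 cytosolic gene was set beside 1 mitochondrial gene. Phenylalanine was left out, since its cytosolic enzyme is made from 2 genes. In these pairs the cytosolic level per kb was the higher in all 6 groups for 11 amino acids. The ratio was largest for methionine, where MARS1 stood 27.8 to 84.2 times above MARS2. MARS2 was near the floor: it had 49, 0 and 23 counts in CT libraries, where the ratio was 84.2. It also had as few as 1 count in a KO1 library and 4 counts in an ACTB-WT library, so the size of this ratio is uncertain. For serine, SARS1 stood 1.48 to 2.26 times above SARS2, and for isoleucine IARS1 stood 1.26 to 3.39 times above IARS2. Cysteine was the exception in the other direction: CARS1, the cytosolic enzyme, had 0.287 to 0.406 of the level of the mitochondrial CARS2 in all 6 groups. CARS2, CARS1 and SARS2 each overlap an exon of another annotated gene on the opposite strand. Their counts may hold reads of that gene if the counting did not use strand, a setting not given. For glutamate, leucine and arginine the group means changed sides between groups, while the library ranges of the paired genes overlapped in most groups. Some of these means rested on single libraries: RARS2 had 3.71, 13.3 and 2.28 CPM in Actin KO libraries, and EPRS1 had 54.8, 1.55 and 34.3 CPM in CT libraries. By group means EPRS1, which charges both glutamate and proline in the cytosol, was above the mitochondrial EARS2 in 2 of 6 groups. By the same measure LARS1 was above LARS2 in 4 of 6 and RARS1 above RARS2 in 4 of 6. These orderings rest on annotated lengths and not on the lengths used in the authors' quantification. The part of base composition in them was not tested.

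No member passed the test in any of the 7 comparisons, each an edgeR quasi-likelihood fit with Benjamini-Hochberg adjustment over all genes of the table and a call at an adjusted p below 0.05. For ACTB-mut over Actin KO, 0 of 38 members were called, against 0.922% of all genes tested. At an unadjusted p below 0.05, 10 of 38 members passed (26.3%), against 11.5% of all genes. The libraries of the 2 groups did not overlap for 10 of 38 members, against 18.5% of all genes. DESeq2 called 3 members (VARS1, HARS1 and AIMP2), and limma-voom and the edgeR fit without a filter called VARS1 alone.

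VARS1, which charges valine and lies at chr6:31777518-31795953 on the minus strand (GRCh38, GENCODE 29), came closest to the threshold. It had 287, 290 and 272 CPM in ACTB-mut libraries, against 361, 392 and 498 CPM in Actin KO libraries. Every ACTB-mut library was below every Actin KO library. The log2 fold change was -0.56 with an SE of 0.14 and a 95% interval of -0.85 to -0.27, at an edgeR adjusted p of 0.0777. VARS1 is the most GC-rich member, with 62.6% GC in its transcript, and with offsets for GC content its log2 fold change was -0.37 (edgeR adjusted p = 0.240). Without Actin KO replicate 3 it was -0.42 (edgeR adjusted p = 0.335).

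HARS1, the cytosolic histidine enzyme, had 89.7, 88.5 and 148 CPM in ACTB-mut libraries, against 175, 158 and 160 CPM in Actin KO libraries. The third ACTB-mut library lay near the Actin KO level and the other two far below it. The log2 fold change was -0.60 (SE 0.19), with an edgeR adjusted p of 0.201, and without ACTB-mut replicate 3 it was -0.89 with an edgeR adjusted p of 0.0394. HARS1 shares exon sequence on the opposite strand with HARS2, its mitochondrial counterpart, within chr5:140691426-140691862. Reads of that stretch cannot be told apart if the counting did not use strand, a setting not given in the sources used here. In bulk RNA of this kind, fewer cells with a transcript and less of it per cell cannot be told apart. In all, 21 of the 38 members overlapped an exon of another annotated gene, 18 of them on the opposite strand.

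AIMP2, a scaffold of the complex, had 98.2, 107 and 116 CPM in ACTB-mut libraries, against 132, 158 and 147 CPM in Actin KO libraries. Its log2 fold change was -0.44 (SE 0.14), with an edgeR adjusted p of 0.197. AARS1, the alanine enzyme whose promoter window is printed above, had 110, 109 and 113 CPM in ACTB-mut libraries, against 146, 121 and 182 CPM in Actin KO libraries. Its log2 fold change was -0.44 (SE 0.16, edgeR adjusted p = 0.266). For both genes the libraries of the 2 groups did not overlap, and the ACTB-mut libraries were the tighter set.

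By class, the median log2 fold change of ACTB-mut over Actin KO was -0.10 for the cytosolic genes, with 7 above 0 and 11 below, and 0.27 for the mitochondrial genes, with 11 above 0 and 5 below. The median over all genes tested was 0.03. The class difference of these fitted values, cytosolic minus mitochondrial, was -0.37. A different measure was taken in single libraries: the median log2 deviation of the cytosolic genes minus that of the mitochondrial genes. That measure averaged -0.19 in ACTB-mut and 0.11 in Actin KO libraries, with a pooled within-group SD of 0.21 among single libraries. No test is given for the class difference, since the members were chosen with earlier results known.

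For ACTB-WT over Actin KO, 0 of 38 members were called, against 1.12% of all genes. At an unadjusted p below 0.05, 6 members passed (15.8%, against 11.2% of all genes), and the libraries did not overlap for 7 (against 16.7% of all genes). DESeq2, limma-voom and the unfiltered edgeR fit called 0 members as well. GARS1 had 138, 123 and 153 CPM in ACTB-WT libraries, against 97.9, 105 and 103 CPM in Actin KO libraries, a log2 fold change of 0.44 (SE 0.14, edgeR adjusted p = 0.215). In ACTB-mut libraries GARS1 had 142, 136 and 118 CPM, also above every Actin KO library, and the 2 comparisons share those Actin KO libraries.

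PARS2, the mitochondrial proline enzyme, had 3.18, 3.90 and 1.74 CPM in ACTB-WT libraries, against 10.3, 8.59 and 7.53 CPM in Actin KO libraries. Its log2 fold change was -1.58 (SE 0.57, edgeR adjusted p = 0.265), from low counts. IARS2, the mitochondrial isoleucine enzyme, had 11.1, 15.5 and 35.0 CPM in ACTB-WT libraries, against 8.75, 10.1 and 8.79 CPM in Actin KO libraries. The ACTB-WT libraries lay above the Actin KO ones but were widely spread, and the log2 fold change was 1.16 (SE 0.48, edgeR adjusted p = 0.366). AIMP2 had 108, 112 and 120 CPM in ACTB-WT libraries, below the Actin KO libraries given above, with a log2 fold change of -0.36 (SE 0.14, edgeR adjusted p = 0.327). The class medians were -0.05 for the cytosolic and 0.16 for the mitochondrial genes, against -0.01 over all genes.

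For ACTB-mut over ACTB-WT, which compares the 2 actin forms on the same background, 0 of 38 members were called, against 1.24% of all genes, and DESeq2, limma-voom and the unfiltered edgeR fit called 0 too. At an unadjusted p below 0.05, 4 members passed (10.5%, against 12% of all genes), and the libraries did not overlap for 8 (against 18.1% of all genes). TARS2, the mitochondrial threonine enzyme, had 26.3, 28.4 and 28.03 CPM in ACTB-mut libraries, against 11.7, 9.67 and 18.6 CPM in ACTB-WT libraries. The groups did not overlap, and the log2 fold change was 1.05 (SE 0.34, 95% interval 0.32 to 1.78, edgeR adjusted p = 0.194). Actin KO libraries had 23.6, 15.2 and 30.1 CPM of TARS2 and spanned most of that distance.

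CARS2 had 88.6, 121 and 135 CPM in ACTB-mut libraries, against 85.1, 86.1 and 78.2 CPM in ACTB-WT libraries, with a log2 fold change of 0.47 (SE 0.19, edgeR adjusted p = 0.329). PARS2 had 6.65, 5.09 and 8.88 CPM in ACTB-mut libraries, above the ACTB-WT libraries given above, with a log2 fold change of 1.21 (SE 0.56, edgeR adjusted p = 0.411). VARS1 in ACTB-WT libraries had 341, 431 and 346 CPM, and its log2 fold change in ACTB-mut over ACTB-WT was -0.40 (SE 0.14, edgeR adjusted p = 0.226). These 3 genes likewise showed no overlap between the 2 groups. The class medians of the fitted fold changes were both 0.01, and leaving out ACTB-WT replicate 3 gave a class difference of -0.31. Taken library by library, as the median deviation of the cytosolic genes minus that of the mitochondrial genes, the class difference averaged -0.19 in ACTB-mut and 0.01 in ACTB-WT libraries on the log2 scale, and the libraries overlapped.

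**Figure D2:**
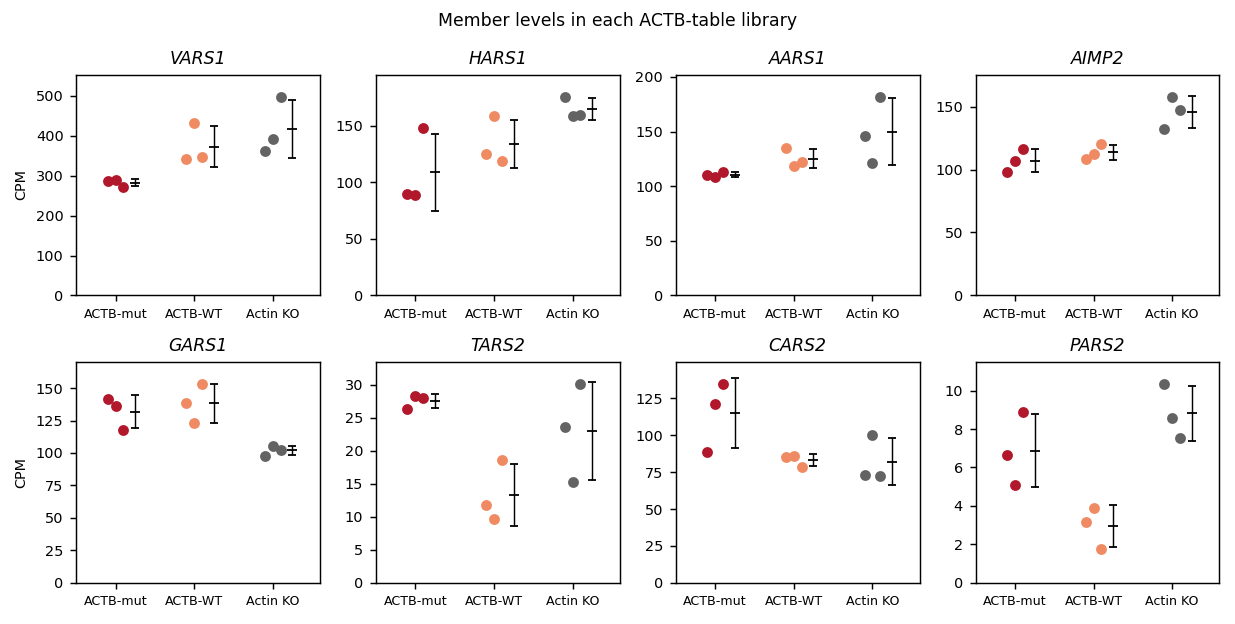
CPM of 8 members in each library of the ACTB table, with ACTB-mut, ACTB-WT and Actin KO from left to right; the bar beside each set of points is the mean ± SD (n = 3). The ACTB-mut libraries of VARS1, at 272 to 290 CPM, lie below all Actin KO libraries, and 1 HARS1 library in ACTB-mut stands apart from the other two.

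The summed CPM of the cytosolic genes over that of the mitochondrial genes gave 1 ratio per library. It was 4.44 to 5.45 in ACTB-mut, 5.61 to 5.92 in ACTB-WT and 6.14 to 6.34 in Actin KO libraries, so the 3 groups did not overlap. The cytosolic sum averaged 2137 ± 133 CPM in ACTB-mut, 2298 ± 10.6 CPM in ACTB-WT and 2382 ± 38.8 CPM in Actin KO libraries (SD, n = 3 each). The mitochondrial sum averaged 431 ± 29.3 CPM in ACTB-mut, 396 ± 11.9 CPM in ACTB-WT and 383 ± 10.6 CPM in Actin KO libraries. With all members the ratio averaged 4.97 ± 0.51 in ACTB-mut, 5.81 ± 0.17 in ACTB-WT and 6.23 ± 0.10 in Actin KO libraries (SD, n = 3 each). Without VARS1 and CARS2, a pair chosen after their differences were seen, it averaged 5.88 ± 0.70 in ACTB-mut, 6.17 ± 0.27 in ACTB-WT and 6.58 ± 0.63 in Actin KO libraries, and the libraries of the groups overlapped. The order of the means was the same with and without the pair. The share of counts on mitochondrially encoded genes was 0.910% to 1.61% in ACTB-mut libraries, above the 0.636% to 0.778% of ACTB-WT and the 0.739% to 0.874% of Actin KO libraries, and its part in the ratio was not tested. In the SETD3 table the ratio was 5.19 to 6.03 in KO2, 4.38 to 5.95 in KO1 and 5.36 to 6.37 in CT libraries, and the groups overlapped.

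**Figure D3:**
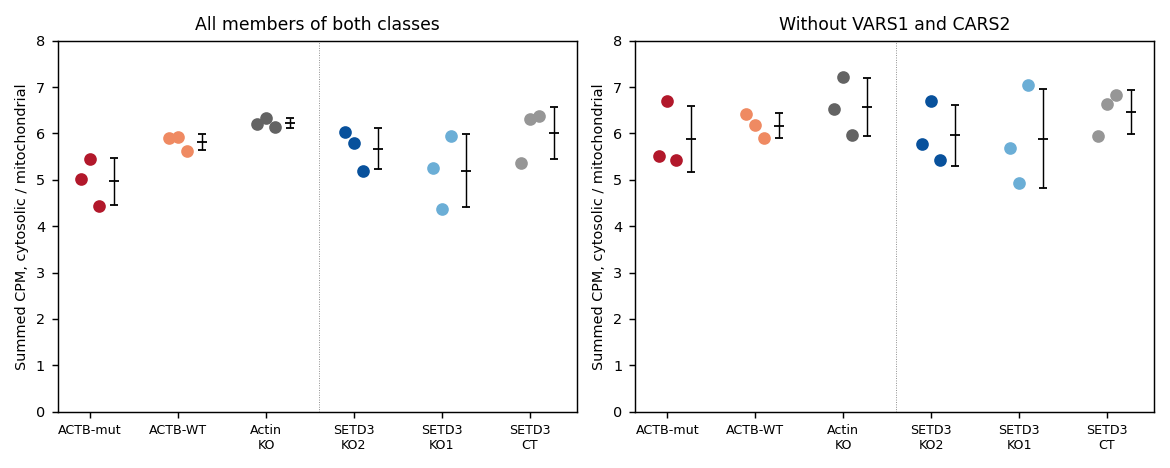
Ratio of summed CPM, cytosolic over mitochondrial genes, in each of the 18 libraries, with the mean ± SD beside the points (n = 3); the right panel leaves out VARS1 and CARS2. The ACTB-mut libraries, at 4.44 to 5.45, lie below those of ACTB-WT and Actin KO in the left panel and overlap them in the right panel.

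In the SETD3 table few genes of any kind passed the test. For KO1 over CT, 0 of 38 members were called, against 0.0144% of all genes, and 2 members passed an unadjusted p below 0.05 (5.26%, against 5.75% of all genes). The libraries did not overlap for 5 members, against 13.2% of all genes. LARS1, the cytosolic leucine enzyme at chr5:146113038-146182660 on the minus strand, had 9.17, 7.87 and 17.6 CPM in KO1 libraries, against 43.2, 20.8 and 18.8 CPM in CT libraries. The KO1 libraries were below the CT libraries, though the nearest pair lay close together. The log2 fold change was -1.26 (SE 0.49, 95% interval -2.33 to -0.20, edgeR adjusted p = 0.826). WARS2, the mitochondrial tryptophan enzyme, had 7.25, 4.11 and 4.40 CPM in KO1 libraries, against 12.6, 9.31 and 13.5 CPM in CT libraries, a log2 fold change of -1.17 (SE 0.52, edgeR adjusted p = 0.846).

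HARS1 had 153, 134 and 173 CPM in KO1 libraries, against 95.3, 106 and 136 CPM in CT libraries, with a log2 fold change of 0.45 (SE 0.21, edgeR adjusted p = 0.887). FARSB had 74.7, 63.7 and 100 CPM in KO1 libraries, against 79.8, 156 and 117 CPM in CT libraries, with a log2 fold change of -0.56 (SE 0.28, edgeR adjusted p = 0.900). Both genes overlapped between the groups. The class medians in this comparison were -0.26 for the cytosolic genes, with 6 above 0 and 12 below, and 0.24 for the mitochondrial genes, with 10 above 0 and 6 below, against -0.02 over all genes. Of the 9 complex genes, 8 had a log2 fold change below 0 in KO1 over CT and 5 in KO2 over CT, while 7120 of all 13846 genes did in KO1 over CT and 7028 in KO2 over CT.

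For KO2 over CT, 0 of 38 members were called, against 0.0578% of all genes, and AIMP2 alone passed an unadjusted p below 0.05 (2.63% of members, against 4.95% of all genes). The libraries did not overlap for 2 members, against 10.2% of all genes. AIMP2 had 142, 165 and 173 CPM in KO2 libraries, against 111, 97.1 and 144 CPM in CT libraries, a log2 fold change of 0.45 (SE 0.21, edgeR adjusted p = 0.982). AARS2, the mitochondrial alanine enzyme, had 16.2, 23.5 and 17.5 CPM in KO2 libraries, against 6.50, 12.0 and 11.2 CPM in CT libraries, a log2 fold change of 0.95 (SE 0.46, edgeR adjusted p = 1.00). AARS2 did not overlap between the groups, while AIMP2 did.

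FARSA had 455, 398 and 322 CPM in KO2 libraries, against 253, 324 and 343 CPM in CT libraries. FARS2, the mitochondrial phenylalanine enzyme, had 9.87, 13.3 and 19.9 CPM in KO2 libraries, against 3.30, 14.4 and 3.54 CPM in CT libraries. Both overlapped between the groups, with log2 fold changes of 0.35 for FARSA (SE 0.22) and 1.05 for FARS2 (SE 0.66). FARS2 ran between 0.71 and 2.08 with 1 library left out, and 2.08 was the value without CT replicate 2. The class medians were 0.03 for the cytosolic and 0.06 for the mitochondrial genes, against -0.01 over all genes. The class difference of the fitted values was -0.03 in KO2 over CT and -0.50 in KO1 over CT, and the 2 comparisons share the CT libraries. With 1 library left out it ran between -0.16 and 0.13 for KO2 and between -0.46 and -0.21 for KO1. For KO1 it was -0.21 without CT replicate 2, -0.22 without KO1 replicate 2, -0.23 without CT replicate 3 and -0.29 without CT replicate 1. Taken library by library it averaged -0.10 in KO2, -0.11 in KO1 and -0.02 in CT libraries, with a pooled within-group SD of 0.29, so these groups were not separated by it.

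With the 2 knockout lines averaged, 0 of 38 members were called over CT (0.0433% of all genes), and 0 passed an unadjusted p below 0.05 (5.68% of all genes). The libraries did not overlap for 0 members, against 3.26% of all genes. FARSB had the lowest p, with a log2 fold change of -0.50 (SE 0.24, edgeR adjusted p = 0.883). FARS2 was at 1.16 (SE 0.60), AIMP2 at 0.34 (SE 0.18) and HARS1 at 0.35 (SE 0.19) on the same scale. For KO2 over KO1, 0 of 38 members were called (0.0289% of all genes), and LARS1 alone passed an unadjusted p below 0.05 (2.63%, against 4.84% of all genes). The libraries did not overlap for 5 members, against 11.9% of all genes. LARS1 had 58.9, 20.9 and 33.3 CPM in KO2 libraries, above all KO1 libraries, with a log2 fold change of 1.70 (SE 0.50, edgeR adjusted p = 0.749). The means of the 2 lines labelled as the same knockout thus lay on opposite sides of CT for this gene. They were 37.7 CPM in KO2, 11.5 CPM in KO1 and 27.6 CPM in CT libraries, and the KO2 libraries overlapped the CT libraries.

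WARS2 had 9.55, 12.3 and 10.7 CPM in KO2 libraries, above all KO1 libraries, a log2 fold change of 1.05 (SE 0.52). EARS2, the mitochondrial glutamate enzyme, had 46.5, 30.2 and 35.8 CPM in KO2 libraries, against 26.6, 24.3 and 17.4 CPM in KO1 libraries, a log2 fold change of 0.71 (SE 0.40). CARS2 had 91.7, 102 and 73.3 CPM in KO2 libraries, against 106, 105 and 135 CPM in KO1 libraries, a log2 fold change of -0.38 (SE 0.21). None of these 3 genes overlapped between the lines, and none passed the test. In these 4 SETD3-table comparisons DESeq2, limma-voom and the unfiltered edgeR fit also called 0 members.

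**Figure D4:**
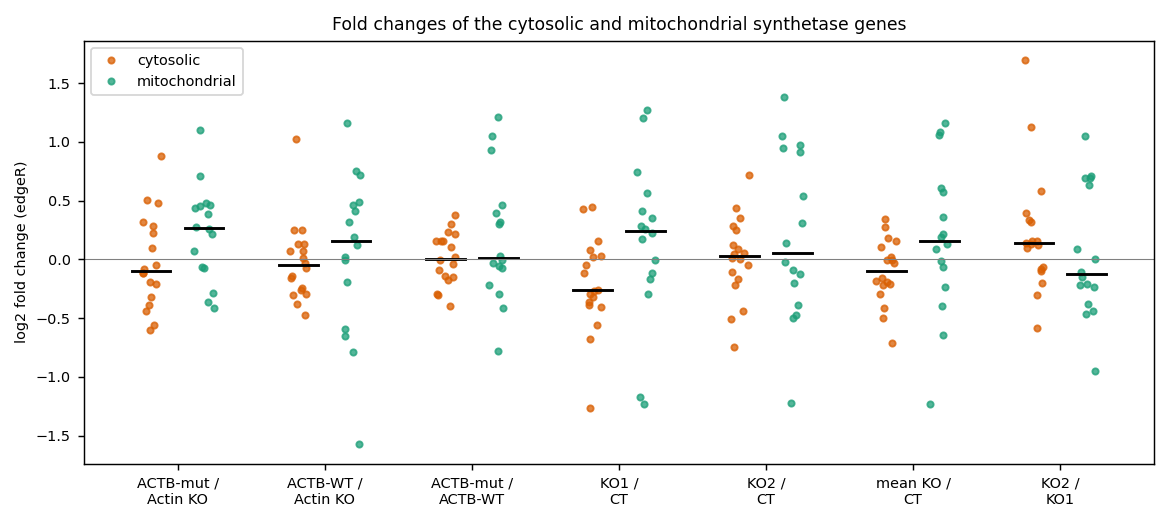
Fitted log2 fold changes of the 18 cytosolic and 16 mitochondrial genes in the 7 comparisons, 1 point per gene, with the class median as a black line. The cytosolic median lies below the mitochondrial one most clearly in ACTB-mut over Actin KO (-0.10 and 0.27) and KO1 over CT (-0.26 and 0.24), and the points of both classes overlap in every comparison.

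The absence of calls does not show that levels were equal. The 95% interval of the fold change lay wholly within 1 log2 unit either way for 23 of 38 members in ACTB-mut over Actin KO, for 21 in ACTB-WT over Actin KO, for 15 in KO1 over CT and for 14 in KO2 over CT. The mitochondrial genes, being the lower ones, were measured less precisely. In ACTB-mut over Actin KO the median half-width of the interval was 0.83 log2 units for them and 0.45 for the cytosolic genes, and in KO1 over CT it was 1.10 and 0.62.

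Part of the spread among replicates followed base composition. Of the members, 12 had a transcript GC content below 45% (among them EPRS1, FARSB, IARS1, LARS1, NARS1, RARS1 and TARS1) and 8 had 55% or more. The median deviation of the low-GC members from their means over the table was -0.58 log2 units in SETD3 KO2 replicate 1 and 0.67 units in KO2 replicate 3. It was -1.04 units in KO1 replicate 3, and in CT libraries it was -0.94 units in replicate 2 and 0.76 units in replicate 1. The libraries of a single group thus lay on both sides of the mean for these genes in all 3 groups of the SETD3 table. In the ACTB table every ACTB-mut library lay above the mean for these genes, with Actin KO replicate 1 among them, and ACTB-WT and Actin KO overlapped. The low-GC median was 0.31, 0.22 and 0.36 in ACTB-mut libraries, against 0.03, -0.18 and -0.08 in ACTB-WT libraries and 0.23, -0.27 and -0.29 in Actin KO libraries. Across all genes with a GC value, the correlation of a gene's deviation with its GC content was -0.20, -0.12 and -0.09 in ACTB-mut libraries, against -0.01 to 0.09 in ACTB-WT and 0.00 to 0.16 in Actin KO libraries. Its part in the class difference was not tested beyond the GC offsets, with which that difference was -0.39 in ACTB-mut over Actin KO and -0.15 in ACTB-mut over ACTB-WT.

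EPRS1, a low-GC member, spread widely among replicates, and the parts of depth and base composition in this spread were not tested. It had 1.27, 24.8 and 27.1 CPM in KO2 libraries, 19.97, 25.1 and 11.8 CPM in KO1 libraries and 54.8, 1.55 and 34.3 CPM in CT libraries. The low KO2 and CT values came from 4 and 7 counts in the shallowest library of each group, at totals of 3389586 and 4898827. The part of base composition in the LARS1 and FARSB differences was not tested gene by gene beyond the GC offsets, with which no member was called either.

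**Figure D5:**
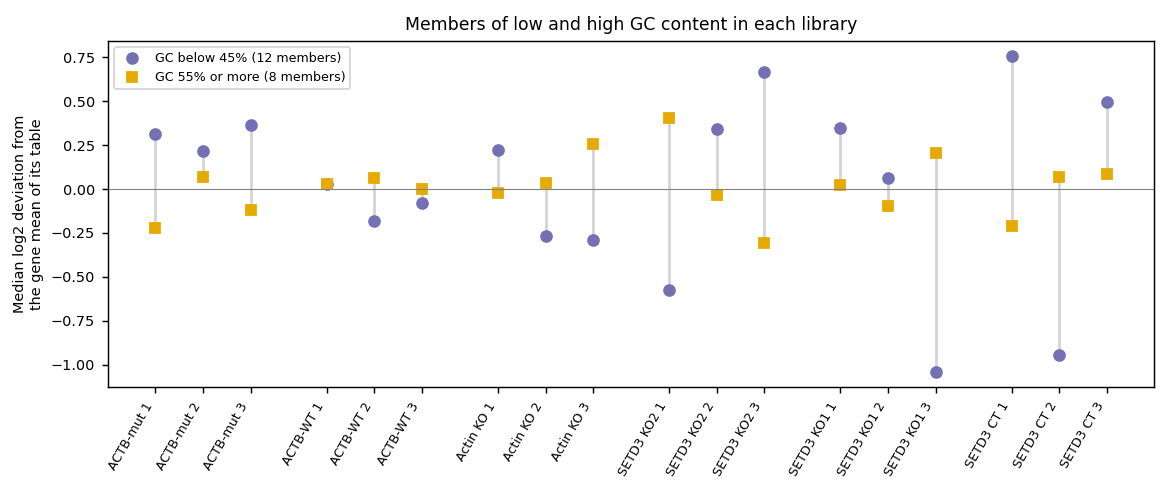
Median log2 deviation of the 12 members below 45% GC and of the 8 members at 55% GC or more from each gene's mean over its table, in each library. The low-GC members spread between -1.04 and 0.76 among SETD3-table libraries and less widely in the ACTB table.

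Other genes of the pathway were tested in the same fits. Among 15 further aminoacylation and delivery factors, 14 were tested. In ACTB-mut over Actin KO 1 of the 14 was called higher, against 0.922% of all genes called in either direction. In ACTB-mut over ACTB-WT 1 of the 14 was called higher, against 1.24% of all genes. EEF1B2, a subunit of the exchange factor that recharges the elongation factor carrying aminoacyl-tRNA, had 1487, 1117 and 1210 CPM in ACTB-mut libraries, against 845, 869 and 758 CPM in Actin KO libraries (log2 fold change 0.63, SE 0.11, edgeR adjusted p = 0.0153). EEF1A1, that elongation factor, had 2911, 3251 and 3725 CPM in ACTB-mut libraries, against 1407, 1073 and 1750 CPM in ACTB-WT libraries (log2 fold change 1.23, SE 0.21, edgeR adjusted p = 0.0138). Actin KO libraries had 2302, 1920 and 1237 CPM of EEF1A1. In the SETD3 table its libraries ran between 1557 and 3904 CPM in KO2, between 1034 and 1120 CPM in KO1 and between 1498 and 3126 CPM in CT. The part of base composition in this spread was not tested. EEF1A1 has many processed copies in the genome, so its counts are uncertain where reads were split among them.

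Of 36 genes of tRNA processing, modification and transport, 35 were tested and 0 were called by edgeR in any of the 7 comparisons. At an unadjusted p below 0.05, 2 of the 35 passed in ACTB-mut over Actin KO (11.5% of all genes), 2 in ACTB-WT over Actin KO (11.2% of all genes) and 4 in ACTB-mut over ACTB-WT (12% of all genes). Of 27 genes of ATF4 and the amino acid response, 25 were tested in the ACTB table. In ACTB-WT over Actin KO 1 was called higher (1.12% of all genes called), and in ACTB-mut over ACTB-WT 1 was called lower (1.24%). At an unadjusted p below 0.05, 4 were higher and 2 lower in ACTB-WT over Actin KO (11.2% of all genes). In ACTB-mut over Actin KO 3 were higher and 0 lower (11.5%), and in ACTB-mut over ACTB-WT 1 was higher and 5 lower (12%). PHGDH, the first enzyme of serine synthesis, rose in ACTB-WT, at 330, 375 and 298 CPM, against 194, 222 and 226 CPM in Actin KO libraries (log2 fold change 0.64, SE 0.13, edgeR adjusted p = 0.0182). DDIT4, an inhibitor of mTORC1 signalling, had 83.8, 107 and 90.9 CPM in ACTB-mut libraries, against 173, 165 and 132 CPM in ACTB-WT libraries. The log2 fold change of ACTB-mut over ACTB-WT was -0.74 (SE 0.16, edgeR adjusted p = 0.0314). Actin KO libraries had 115, 100 and 114 CPM of DDIT4, below every ACTB-WT library and overlapping the ACTB-mut libraries.

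ATF4 RNA had 263, 321 and 254 CPM in ACTB-mut libraries, against 190, 184 and 207 CPM in Actin KO libraries. The groups did not overlap, and the log2 fold change was 0.53 (SE 0.13, edgeR adjusted p = 0.0856). ASNS, asparagine synthetase and a known ATF4 target, averaged 50.9 ± 10.8 CPM in ACTB-mut and 62.0 ± 16.9 CPM in Actin KO libraries (SD, n = 3 each), and the libraries of the 2 groups overlapped. The 12 synthetase genes known as ATF4 targets had a median log2 fold change of -0.06 in that comparison, with 5 above 0 and 7 below, against 0.03 over all genes.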

How the data were processed

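For 18 libraries in 2 tables, the authors deposited gene-level RSEM expected counts that had not been normalised. Per the submitters' processing notes, the authors used Trim Galore 0.4.5, cutadapt 1.15, RSEM 1.2.28, Bowtie2 and GRCh38; annotation release and strand setting are not given in the sources used here. Expected counts were rounded to whole numbers; 83.4% and 83.8% of values were whole within 0.005. A separate model per table held 3 groups (edgeR 4.0.16, R 4.3.3; filterByExpr, TMM, robust quasi-likelihood F tests, two-sided), which tested 13882 ACTB-table and 13846 SETD3-table genes. The SE is the absolute log2 fold change over the square root of F. Lengths, GC content and coordinates came from GENCODE 29. The code was tested on simulated data. Members and lists were chosen with earlier results of these data known. Values in every library are given for called members and, in each comparison, for the 4 members with the lowest unadjusted p; outside the list, called pathway genes, ATF4 and ASNS are named. Alternatives were RLE scaling, no filter, DESeq2 1.42.0, limma-voom 3.58.1, the replicate number as a block, GC offsets, each library left out, GARS1 and KARS1 as cytosolic, and members of at least 20 CPM.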

Additional observations from a re-analysis of the deposited data

How the results depend on the processing

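For ACTB-mut over Actin KO the count of members called moved: it was 0 with edgeR, 1 without the filter on low counts, 3 with DESeq2 and 1 with limma-voom, and 0 to 1 with 1 library left out (1, HARS1, without ACTB-mut replicate 3). In the other 6 comparisons it stayed 0 under every alternative run. All genes called in ACTB-mut over Actin KO numbered 128 with edgeR, 371 without the filter, 395 with DESeq2, 195 with limma-voom and 85 with the block. In ACTB-WT over Actin KO the calls numbered 155, against 320 without the filter, 358 with DESeq2 and 89 with the block, and in ACTB-mut over ACTB-WT 172, against 402, 446 and 83. In the SETD3 table edgeR called 2 to 8 genes per comparison and DESeq2 56 to 91; the cause was not tested. The class difference of ACTB-mut over ACTB-WT was -0.01 and ran between -0.31 and 0.039 with 1 library left out (-0.31 without ACTB-WT replicate 3, -0.24 without ACTB-mut replicate 2). In ACTB-mut over Actin KO it was -0.58 to -0.16 with 1 library left out. No named gene turned direction.

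The replicate numbers did not pair the samples: deviations of same-numbered libraries correlated at -0.02 to 0.03 in the ACTB table and at -0.19 to 0.07 in the SETD3 table. With the replicate block, 0 members were called in all 7 comparisons, and the class difference was -0.43 in ACTB-mut over Actin KO, -0.21 in ACTB-WT over Actin KO and 0.01 in ACTB-mut over ACTB-WT. It was -0.51 in KO1 over CT, 0.06 in KO2 over CT, -0.31 for the mean of both lines over CT and 0.29 in KO2 over KO1. With 3 libraries a group and low counts, fold changes of the mitochondrial genes are the least certain.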
